A study of Mus musculus with 12 samples.

Results

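The nuclear-encoded subunits of the mitochondrial respiratory chain were examined in mouse microglia. The members were a named list of 43 genes: 23 subunits of complex I, 4 of complex II, 6 of complex III, cytochrome c (Cycs) and 9 subunits of complex IV, among which Ndufa4 was counted. All 43 had a named probe among 27928 genes or accessions on a slide with 4 arrays of the study. On a slide with 8, 42 had one among 30525, and no named probe was found for Cox5b. A probe without a gene name was counted by its accession, and all genes below means both kinds. The list goes by gene name and function and uses no measured value, but it was chosen with earlier results of these data known.

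Microglia, the resident immune cells of the brain, came from male mice aged 8 weeks and were enriched by magnetic sorting for CX3CR1, a chemokine receptor of microglia. Transient middle cerebral artery occlusion (tMCAO), a stroke model in which a brain artery is blocked and then reopened, separated the samples taken before from those taken after. There were 6 groups of 2 arrays: mice overexpressing the transcription factor ZEB1 after tMCAO, ZEB1 knock-down mice after tMCAO, wild type mice after tMCAO, ZEB1 overexpression before tMCAO, ZEB1 knock-down before tMCAO, and wild type before tMCAO. ZEB1 overexpression and wild type after tMCAO shared the 4-array slide, and the other 4 groups shared the 8-array slide. Comparisons were therefore made within a slide, and wild type after tMCAO was not set against wild type before tMCAO. The labels name no promoter or cell type driving the transgene or the knock-down, no wild type strain, and do not say whether the 2 arrays of a group came from separate animals. Where a gene had replicate values, its p-value thus rests on the spread among samples that may differ only technically, and 2 arrays per group limit the precision.

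The respiratory chain passes electrons from NADH and succinate to oxygen and builds the proton gradient that drives ATP synthesis. Complex I oxidises NADH, complex II oxidises succinate as part of the tricarboxylic acid cycle, complex III hands electrons to the mobile carrier cytochrome c, and complex IV reduces oxygen to water. Most subunits are encoded in the nucleus and are transcribed under factors such as NRF1 and the GABP (NRF2) complex, with coactivators of the PGC-1 family. Microglia change their balance of oxidative and glycolytic metabolism when they become activated, and interrupted blood flow deprives the chain of oxygen. ZEB1 is a zinc-finger factor that binds E-box DNA and is best known as a repressor of epithelial genes.

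Promoter letters for the members were taken from RefSeq (GRCm38.p6), in which 33 of the 43 members matched by symbol with 35 windows. The window was the 250 bases before the annotated start. Both strands were searched for CACCTG, the E-box letters that ZEB1 is known to bind, and for the core of the NRF1 site, GCGCA followed by any base and GCGC. No member carried both. CACCTG was found for 6 of the 33 members (18.2%), namely Ndufa1, Ndufa3, Ndufa9, Ndufs3, Sdhb and Uqcrc1, against 17.2% of 32851 windows of the same length. The NRF1 core was found for 5 members (15.2%), namely Cox6a1, Ndufa5, Ndufa8, Sdha and Sdhd, against 3.74% of the windows. A match describes letters and is no evidence of binding. Below are 4 windows, a pair for each motif, with its letters in capitals on the strand of the gene, read 5′ to 3′ and ending at the base before the start. The first pair shows the E-box letters upstream of a core protein of complex III (Uqcrc1) and of the iron-sulphur subunit of complex II (Sdhb). The second pair shows the repeated NRF1 core upstream of the flavoprotein of complex II (Sdha) and of a complex IV subunit (Cox6a1).
Uqcrc1 promoter, chr9:108936398-108936647, plus strand: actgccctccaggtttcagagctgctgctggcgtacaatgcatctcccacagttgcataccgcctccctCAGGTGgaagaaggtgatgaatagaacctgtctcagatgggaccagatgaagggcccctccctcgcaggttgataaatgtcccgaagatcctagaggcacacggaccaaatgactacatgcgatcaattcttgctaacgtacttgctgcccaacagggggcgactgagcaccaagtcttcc
Sdhb promoter, chr4:140961021-140961270, plus strand: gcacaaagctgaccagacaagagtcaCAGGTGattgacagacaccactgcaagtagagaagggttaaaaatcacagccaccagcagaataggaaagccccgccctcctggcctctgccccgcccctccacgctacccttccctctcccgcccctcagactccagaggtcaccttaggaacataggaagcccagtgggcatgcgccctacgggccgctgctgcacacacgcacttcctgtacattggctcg
Sdha promoter, chr13:74350241-74350490, minus strand: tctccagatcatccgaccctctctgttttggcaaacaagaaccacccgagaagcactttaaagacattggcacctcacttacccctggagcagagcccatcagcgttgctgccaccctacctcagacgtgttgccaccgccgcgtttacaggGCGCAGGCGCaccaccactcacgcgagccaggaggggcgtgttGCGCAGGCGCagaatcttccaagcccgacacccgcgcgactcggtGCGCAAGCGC
Cox6a1 promoter, chr5:115348959-115349208, minus strand: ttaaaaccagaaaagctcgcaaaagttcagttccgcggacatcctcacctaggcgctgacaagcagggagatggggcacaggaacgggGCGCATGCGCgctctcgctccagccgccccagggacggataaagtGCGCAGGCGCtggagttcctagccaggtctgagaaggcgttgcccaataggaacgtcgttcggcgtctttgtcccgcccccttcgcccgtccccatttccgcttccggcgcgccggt

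The E-box letters began 181 bases before the start of Uqcrc1 and 224 bases before that of Sdhb. The NRF1 core began 98, 55 and 10 bases before the start of Sdha and 162 and 117 bases before that of Cox6a1.

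Values are log2 fluorescence levels measured from the 75th percentile of their own array, so that 0 is the level of that percentile and 1 is a 2-fold higher level. A level belongs to one probe, and levels of different genes are not compared. The scanner software marked spots as non-uniform or as outliers among repeated spots, between 3.68% and 70.5% of the probes above the upper quartile of brightness on an array but at most 0.209% of those below the lower quartile. Between 18 and 35 of the 43 members were marked on each array of the 4-array slide. On the 8-array slide, of 42 members, 27 and 31 were marked in ZEB1 knock-down after tMCAO, 32 and 26 in ZEB1 overexpression before tMCAO, 1 and 1 in ZEB1 knock-down before tMCAO, and 6 and 0 in wild type before tMCAO. Marked spots were left out of the test; the same test with marked spots kept, which covers every member, is given beside it. Levels quoted per array include marked spots, each difference is the first group named minus the second, and its error is the standard error (SE). Where no group of a slide had 2 unmarked arrays for a gene, the SE held no replicate spread. It was then the typical one that limma drew from all genes, 0.39 on the 4-array slide with 1 array in each group.

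Zeb1 itself, the targeted gene, was read by its brightest probe, a different one on each slide, and no difference in it passed the test. With marked spots kept it read -0.08 and 0.56 in ZEB1 overexpression and 0.12 and 0.41 in wild type after tMCAO, a difference of -0.02 (95% interval -0.71 to 0.67, limma adjusted p = 0.974). On the 8-array slide it read -0.66 and -0.67 in ZEB1 knock-down after tMCAO and, before tMCAO, -0.28 and -0.36 in ZEB1 overexpression, -0.11 and -0.79 in ZEB1 knock-down, and -0.57 and -0.59 in wild type. Overexpression minus wild type was 0.26 (95% interval -0.30 to 0.81, adjusted p = 0.771) and knock-down minus wild type was 0.13 (95% interval -0.43 to 0.69, adjusted p = 0.984). Before tMCAO both overexpression arrays, the first of them marked, lay above both wild type arrays, as for 22.8% of all genes. The knock-down arrays lay on either side of them. A dimmer Zeb1 probe of this slide read -0.42 and -0.31 in ZEB1 overexpression and -0.40 and -0.64 in wild type before tMCAO. On that probe these groups overlapped, so the separation depends on the probe. The genotype of every array is given as labelled. Of 10 microglial markers, all 10 were well above background on every array, as were all 8 neuronal, all 6 astrocyte and all 6 oligodendrocyte markers. The monocyte list was Ccr2, Ly6c2, Chil3, Mrc1, Cd163 and Lyve1, of which Mrc1, Cd163 and Lyve1 are markers of macrophages at the brain's borders. The endothelial list was Cldn5, Pecam1, Cdh5, Flt1, Tek and Des, of which Des is a marker of mural cells. In these bulk samples fewer cells of a type and less RNA per cell cannot be told apart.

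The chosen probe of each member, its brightest, was bright in every group. All 172 member values on the 4-array slide and all 336 on the 8-array slide lay above the 75th percentile of their array, and every one was well above background. On the 4-array slide the values ran from 0.87 (Uqcrfs1, the Rieske iron-sulphur protein of complex III) to 5.25 (Cox4i1, the ubiquitous form of complex IV subunit 4), and both ends were in wild type after tMCAO. On the 8-array slide they ran from 1.91 (Sdhc, a membrane anchor of complex II, in ZEB1 knock-down before tMCAO) to 4.79 (Cox4i1, in ZEB1 overexpression before tMCAO). The median over the members was 3.23 and 3.10 in ZEB1 overexpression and 3.44 and 3.29 in wild type after tMCAO. It was 3.23 and 3.59 in ZEB1 knock-down after tMCAO, 3.46 and 3.59 in ZEB1 overexpression before tMCAO, 3.30 and 3.38 in ZEB1 knock-down before tMCAO, and 3.39 and 3.52 in wild type before tMCAO. On the 4-array slide the members were lower at their median on both overexpression arrays than on both wild type arrays, and on the 8-array slide the widest gap was between the 2 arrays of ZEB1 knock-down after tMCAO.

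**Figure D1:**
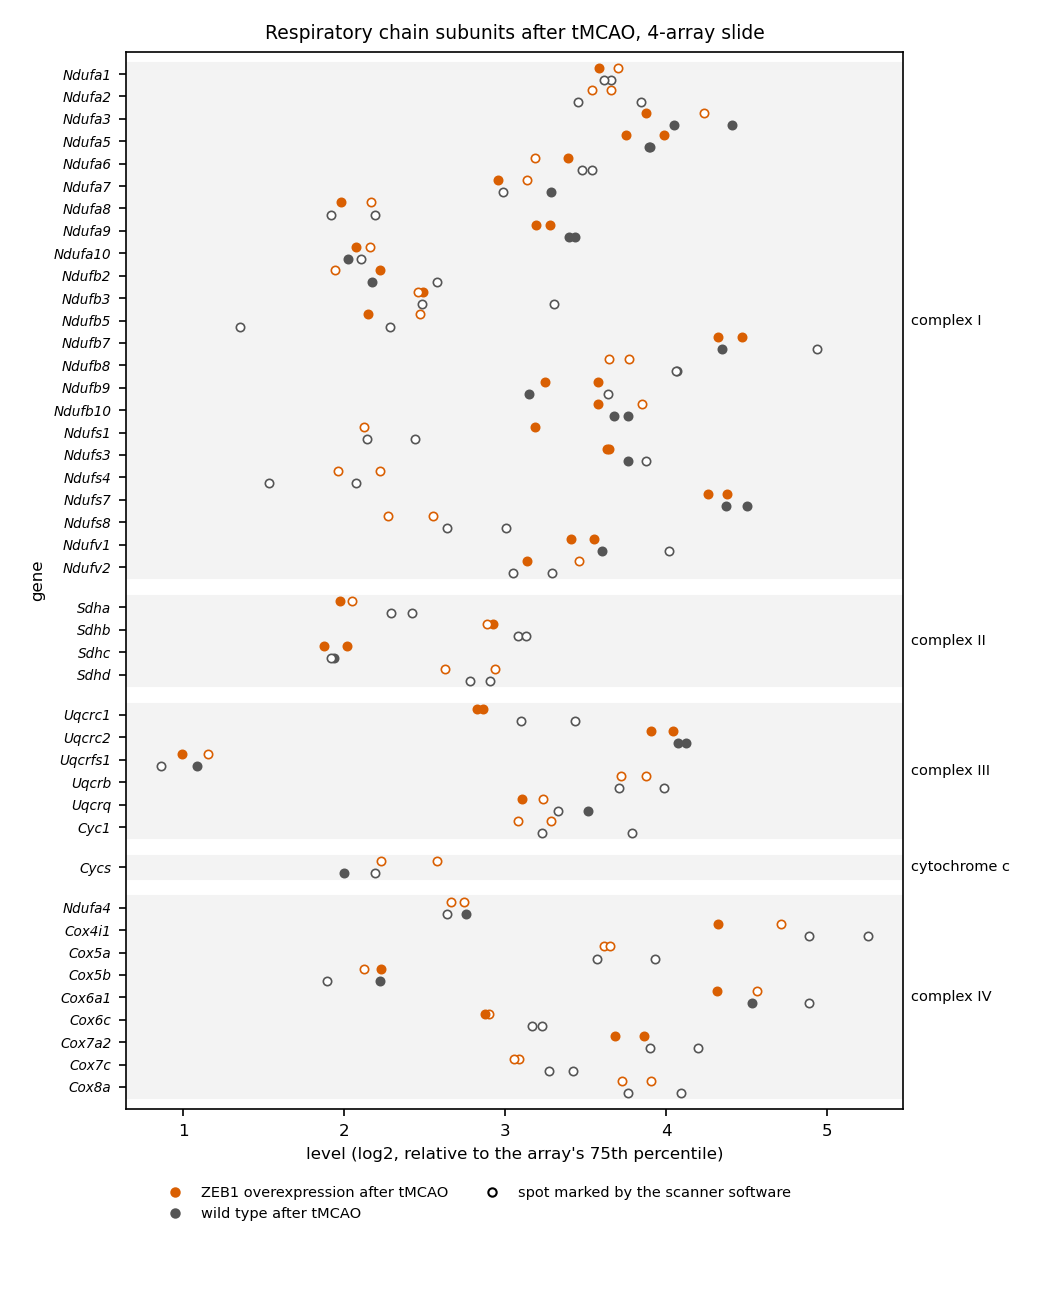
Level of each of the 43 members on each array of the 4-array slide, in log2 units above the array's 75th percentile, for ZEB1 overexpression and wild type after tMCAO. Each point is one array and a hollow point is a spot marked by the scanner software; the points run from 0.87 to 5.25, so that all of them lie above 0.

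**Figure D2:**
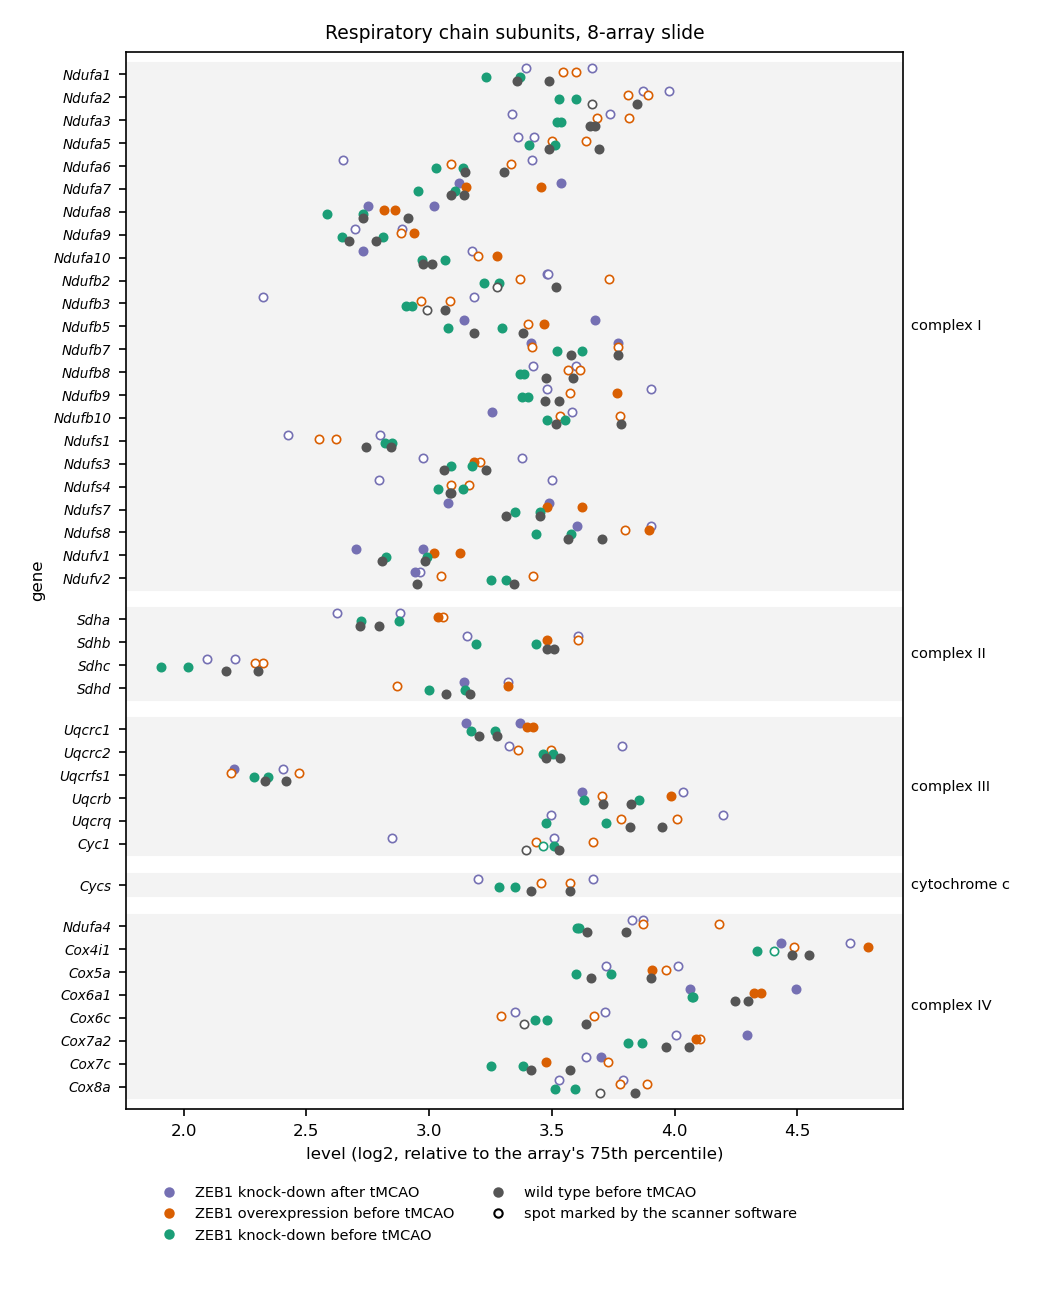
Level of each of the 42 members on each array of the 8-array slide, in log2 units above the array's 75th percentile, for ZEB1 knock-down after tMCAO and for ZEB1 overexpression, ZEB1 knock-down and wild type before tMCAO. Each point is one array and a hollow point is a marked spot; hollow points gather in ZEB1 knock-down after tMCAO and in ZEB1 overexpression before tMCAO.

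No member passed the threshold of an adjusted p of 0.05 in any of the 5 comparisons, whether marked spots were left out or kept. The adjusted p came from limma and was corrected over all genes by the Benjamini-Hochberg method.

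The first comparison asks what ZEB1 overexpression changed in microglia after tMCAO. In the setting with marked spots kept, 7 of 9 complex IV, 5 of 6 complex III, 3 of 4 complex II and 15 of 23 complex I subunits had a difference below 0, and none passed the test. Of the 43 members, 18 had a value on unmarked spots in both groups and 0 of them passed the test, while 2.33% of all genes did (515 of 22065). Keeping marked spots, 0 of 43 members and 3.2% of all genes (893 of 27928) passed. No member reached an unadjusted p of 0.05 in either setting, against 4646 genes (21.1%) with marked spots left out. The smallest adjusted p was 0.591 for Ndufa3 with marked spots left out and 0.271 for Cox4i1 with marked spots kept.

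Of the 43 members, 13 were higher with marked spots kept and the median difference was -0.124, beside -0.101 over all genes. With marked spots left out, 6 of 18 were higher and the median was -0.108, beside -0.105. The members therefore sat close to the centre of all genes on this slide, and with quantile normalization their median was above 0, at 0.0355. Both overexpression arrays lay below both wild type arrays for 15 members, and above them for 1, Cycs. Over all genes the shares were 33.8% below and 21.6% above. On this slide the overexpression arrays lay in row 2, columns 2 and 4, and the wild type arrays in row 1, columns 3 and 4. Row and genotype cannot be told apart.

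Among complex I subunits the median difference with marked spots kept was -0.0909, and 8 of 23 were higher. Ndufb9, an accessory subunit, read 3.58 and 3.25 in ZEB1 overexpression and 3.64 and 3.15 in wild type, and its difference on unmarked spots was the highest of the complex at 0.27 ± 0.33 (n = 2 and 1 arrays). Its groups overlapped, and with marked spots kept the difference was 0.02. Ndufa3, another accessory subunit, read 4.24 and 3.87 in ZEB1 overexpression and 4.41 and 4.05 in wild type, with the lowest difference of the complex at -0.36 ± 0.33 (n = 1 and 2 arrays). Here too the groups overlapped. Ndufs1, a core subunit that holds iron-sulphur clusters, had no value on unmarked spots in wild type. Its 2 overexpression arrays, at 3.19 and 2.13, were 1.06 apart, the widest gap between replicates of any member on any slide, and wild type read 2.44 and 2.14.

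Complex II was read on unmarked spots in both groups only for Sdhc, at 0.01 ± 0.31 (n = 2 and 1 arrays), with 1.87 and 2.02 in ZEB1 overexpression and 1.94 and 1.92 in wild type. These values interleaved. Sdha, the flavoprotein that oxidises succinate, read 1.98 and 2.05 in ZEB1 overexpression and 2.42 and 2.29 in wild type, so that both overexpression arrays were lower. Its difference with marked spots kept was -0.35 ± 0.22 (95% interval -0.88 to 0.19). Sdhb, the iron-sulphur subunit, was also lower on both overexpression arrays, at 2.93 and 2.89 against 3.08 and 3.13 in wild type.

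Complex III gave 3 values on unmarked spots, all of them below 0. Uqcrc2, a core protein, was the highest at -0.09 ± 0.24 (n = 2 and 2 arrays), with 4.04 and 3.91 in ZEB1 overexpression and 4.12 and 4.08 in wild type. Uqcrq, a small subunit, was the lowest at -0.41 ± 0.39 (n = 1 and 1 arrays), with 3.23 and 3.10 in ZEB1 overexpression against 3.33 and 3.51 in wild type. Neither pair of groups overlapped. Uqcrc1, the other core protein, read 2.86 and 2.83 in ZEB1 overexpression and 3.44 and 3.10 in wild type, all wild type spots being marked, and its difference with marked spots kept was -0.42 ± 0.24. Cycs, which carries electrons from complex III to complex IV and triggers apoptosis once released, read 2.23 and 2.58 in ZEB1 overexpression and 2.20 and 2.003 in wild type. It was higher on both overexpression arrays, with a difference of 0.30 ± 0.24 with marked spots kept.

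Complex IV had the lowest median of the complexes with marked spots kept, -0.272, and 2 of 9 subunits were higher. On unmarked spots Cox5b was the highest at 0.01 ± 0.39 and Cox6a1, the form found outside muscle, the lowest at -0.22 ± 0.39 (n = 1 and 1 arrays each). Cox6a1 read 4.56 and 4.32 in ZEB1 overexpression and 4.89 and 4.53 in wild type, and Cox5b 2.13 and 2.23 against 1.89 and 2.22 in wild type. Both sets of values overlapped. Cox4i1 had the most negative difference of any member with marked spots kept, reading 4.32 and 4.72 in ZEB1 overexpression against 5.25 and 4.89 in wild type, a difference of -0.55 ± 0.26 (95% interval -1.17 to 0.08). Both wild type spots of Cox4i1 were marked. Cox6c, Cox7a2 and Cox7c, small structural subunits, were likewise lower on both overexpression arrays, with differences of -0.31, -0.28 and -0.28 with marked spots kept.

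The 25 members without a value when marked spots were left out were Ndufa1, Ndufa2, Ndufa6, Ndufa8, Ndufb3, Ndufb5, Ndufb8, Ndufs1, Ndufs4, Ndufs8 and Ndufv2 of complex I, Sdha, Sdhb and Sdhd of complex II, Uqcrc1, Uqcrb and Cyc1 of complex III, Cycs, and Ndufa4, Cox4i1, Cox5a, Cox6c, Cox7a2, Cox7c and Cox8a of complex IV. A difference of 1 log2 unit in either direction lay outside the 95% interval of 38 of 43 members with marked spots kept, and of 9 of 18 with marked spots left out. The median interval in the first setting reached 0.565 to each side.

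Of 62 related genes measured on unmarked spots 0 passed limma's test and 7 had an unadjusted p under 0.05. Mitochondrially encoded subunits had no named probe and were not analysed here. The list of ATP synthase subunits also holds Atpif1, an inhibitor of the enzyme. That of other ubiquitous complex IV subunits holds Cox7a2l, a supercomplex assembly factor. On unmarked spots other complex I subunits ran from -0.53 for Ndufa12 to 0.07 for Ndufv3 (7 genes), and other complex III subunits ran from -0.31 for Uqcr11 to -0.07 for Uqcr10 (3 genes). The other ubiquitous complex IV subunits stood at -0.04 for Cox7a2l (1 gene), and tissue isoforms ran from -1.13 for Ndufa4l2 to 0.26 for Cox8b (6 genes). The ATP synthase subunits ran from -0.14 for Atp5h to 0.03 for Atp5e (5 genes), and tricarboxylic acid cycle enzymes ran from -0.24 for Dlst to 0.48 for Dld (6 genes). The assembly factors ran from -0.61 for Cox10 to 1.07 for Sco1 (23 genes), and transcription and biogenesis regulators ran from -0.50 for Ppargc1b to 1.05 for Gabpa (11 genes). The regulators had a median of 0.255 with marked spots kept and the adjusted p of Gabpa, a subunit of GABP, was 0.0774. Summed linear levels of 6 endothelial markers were 6.72 and 6.86 in ZEB1 overexpression against 13.0 and 14.2 in wild type, with Tek not well above background on 1 overexpression array, and with marked spots kept 2 of the 6 fell at an adjusted p under 0.05. Those of 8 neuronal markers were 49.4 and 35.6 in ZEB1 overexpression against 57.4 and 54.8 in wild type, of 10 microglial markers 131 and 111 against 136 and 132, of 6 oligodendrocyte markers 20.1 and 21.2 against 26.9 and 26.0, and of 5 monocyte markers 26.6 and 25.5 against 19.1 and 14.7, each overexpression against wild type. They were 24.7 and 24.1 against 26.7 and 27.04 for astrocyte markers, 8.91 and 15.97 against 6.87 and 7.86 for 6 lymphocyte markers and 52.6 and 54.2 against 51.6 and 45.4 for 6 neutrophil markers, also overexpression against wild type. Elane, a neutrophil protease, rose in ZEB1 overexpression by 2.01 on the log2 scale (SE 0.37, limma adjusted p = 0.0464, and 0.0393 with marked spots kept). The 3 erythroid markers tested with marked spots kept were below 0, and 0 passed. Their part in the differences of the members was not tested.

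The second comparison asks the same of microglia before tMCAO. The median difference of every complex was above 0 with marked spots kept, from 0.0466 in complex III to 0.0945 in complex IV, and no member passed the test. Here 20 of 42 members had a value on unmarked spots. Of these 0 passed, and 0% of all genes did (0 of 25162), although 2929 genes (11.6%) but no member had an unadjusted p under 0.05 in limma. The calls were 0 of 42 members and 0% of all genes (0 of 30525) with marked spots kept, with 2933 genes (9.61%) and no member at an unadjusted p under 0.05. The smallest adjusted p of a member was 0.595 for Ndufa10 with marked spots left out, and 0.621 for Ndufa4 with marked spots kept.

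With marked spots left out, 18 of 20 members were higher, and the median was 0.181, beside -0.0100 over all genes. Keeping marked spots, 33 of 42 were higher, and the median was 0.0810, beside -0.0112. Both overexpression arrays stood above both wild type arrays for 17 members and below them for 1, Ndufs1. The shares over all genes were 22.8% above and 24.5% below. Both overexpression arrays lay in row 2 and in columns 1 and 2 of the slide, and both wild type arrays in row 1 and in columns 3 and 4, so position and genotype cannot be told apart.

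In complex I, Ndufa10, an accessory subunit, had the highest difference on unmarked spots at 0.28 ± 0.17 (n = 1 and 2 arrays), with 3.20 and 3.28 in ZEB1 overexpression and 3.01 and 2.98 in wild type. The lowest was that of Ndufa8, also an accessory subunit, at 0.02 ± 0.15 (n = 2 and 2 arrays), with 2.86 and 2.82 against 2.73 and 2.91 in wild type. Ndufa10 was higher on both overexpression arrays, whereas Ndufa8 overlapped. The core subunits Ndufv1 and Ndufs7, measured on unmarked spots on all 4 arrays, differed by 0.18 ± 0.16 and 0.17 ± 0.17. Ndufv1, which binds NADH, read 3.13 and 3.02 against 2.81 and 2.98 in wild type, without overlap. Ndufs1 went the other way, with 2.55 and 2.62 in ZEB1 overexpression, both marked, and 2.84 and 2.74 in wild type, a difference of -0.21 ± 0.17 with marked spots kept.

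In complex II, Sdha was the highest at 0.28 ± 0.18 (n = 1 and 2 arrays), reading 3.06 and 3.04 in ZEB1 overexpression and 2.79 and 2.72 in wild type. Sdhb was the lowest at -0.01 ± 0.20 (n = 1 and 2 arrays), reading 3.48 and 3.61 in ZEB1 overexpression against 3.48 and 3.51 in wild type. Sdha was thus higher on both overexpression arrays, while Sdhb overlapped and was 0.05 with marked spots kept. In complex III, Uqcrb, a small subunit, was the highest at 0.22 ± 0.20 (n = 1 and 2 arrays), with 3.70 and 3.98 in ZEB1 overexpression and 3.71 and 3.82 in wild type. Uqcrc1 was the lower of the 2 measured, at 0.17 ± 0.13 (n = 2 and 2 arrays), with 3.40 and 3.42 against 3.20 and 3.27 in wild type. Only the Uqcrc1 values were free of overlap. Cycs, all of whose overexpression spots were marked, read 3.46 and 3.57 against 3.41 and 3.57 in wild type.

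In complex IV, Cox4i1 was the highest at 0.27 ± 0.19 (n = 1 and 2 arrays), with 4.48 and 4.79 in ZEB1 overexpression and 4.48 and 4.55 in wild type. Cox7c was the lowest at -0.02 ± 0.19 (n = 1 and 2 arrays), with 3.48 and 3.73 in ZEB1 overexpression against 3.41 and 3.57 in wild type, and turned to 0.11 with marked spots kept. Both overlapped. Ndufa4, first assigned to complex I and now placed in complex IV, had the largest difference of any member with marked spots kept: it read 3.87 and 4.18 in ZEB1 overexpression, both marked, and 3.64 and 3.80 in wild type, a difference of 0.30 ± 0.16 (95% interval -0.09 to 0.70). Cox6a1, the only complex IV subunit with 4 unmarked values, read 4.33 and 4.35 against 4.25 and 4.30 in wild type, a difference of 0.07 ± 0.17.

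Without a value on unmarked spots were Ndufa1, Ndufa2, Ndufa3, Ndufa5, Ndufa6, Ndufb2, Ndufb3, Ndufb7, Ndufb8, Ndufb10, Ndufs1, Ndufs4 and Ndufv2 of complex I, Sdhc of complex II, Uqcrc2, Uqcrfs1, Uqcrq and Cyc1 of complex III, Cycs, and Ndufa4, Cox6c and Cox8a of complex IV, 22 members in all. The 95% interval excluded a difference of 1 log2 unit in either direction for all 20 members tested on unmarked spots and for all 42 with marked spots kept, where its median half-width was 0.433. Of 56 related genes on unmarked spots 0 passed limma's test and 0 had an unadjusted p under 0.05. On unmarked spots other complex I subunits ran from 0.03 for Ndufab1 to 0.24 for Ndufa13 (6 genes), and other complex III subunits ran from 0.01 for Uqcr10 to 0.15 for Uqcr11 (2 genes). The ATP synthase subunits ran from -0.06 for Atp5k to 0.30 for Atp5e (5 genes), tricarboxylic acid cycle enzymes ran from -0.12 for Sucla2 to 0.31 for Suclg2 (8 genes), and tissue isoforms ran from -0.12 for Ndufa4l2 to 0.38 for Cox6b2 (6 genes). Lastly, assembly factors ran from -0.21 for Sdhaf3 to 0.40 for Cox10 (21 genes), and transcription and biogenesis regulators ran from -0.22 for Mterf1a to 0.17 for Polrmt (8 genes). The 16 genes of the ATP synthase list had a median of 0.0850 with marked spots kept, close to that of the members. Summed levels were 35.1 and 36.5 in ZEB1 overexpression and 40.5 and 36.4 in wild type for microglial markers, 62.6 and 62.5 against 61.4 and 65.3 for neuronal markers, 24.4 and 27.6 against 25.4 and 26.5 for astrocyte markers and 34.6 and 40.3 against 42.2 and 38.0 for oligodendrocyte markers. They were 5.82 and 5.54 in ZEB1 overexpression against 6.35 and 5.69 in wild type for endothelial markers, 8.81 and 7.60 against 9.43 and 8.81 for monocyte markers, and 5.20 and 7.24 against 3.74 and 11.2 for neutrophil markers. On unmarked spots all 6 monocyte markers (median -0.34) and all 3 erythroid markers tested (median -1.24) were below 0. So were all 4 oligodendrocyte (median -0.35), all 3 neutrophil, 5 of 6 microglial, 4 of 5 endothelial and 2 of 3 neuronal markers. Above 0 were 4 of 5 astrocyte and 2 of 4 lymphocyte markers. No marker passed the test, and 2 of 3 erythroid, 1 of 5 endothelial and 1 of 6 monocyte markers had an unadjusted p under 0.05 in limma. Their part was not tested.

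The third comparison, ZEB1 knock-down against wild type before tMCAO, had the fewest marked spots and covered all 42 members in both settings. The median difference of every complex was below 0, from -0.158 in complex IV to -0.0208 in complex III with marked spots kept, and no member passed the test. The comparison shares its wild type arrays with the one before it. Of the 42 members 0 passed, and 0% of all genes did with marked spots left out (0 of 30307) or kept (0 of 30525). In limma 2661 genes (8.78%) with marked spots left out and 2452 (8.03%) with them kept had an unadjusted p under 0.05, none of them a member. The smallest adjusted p belonged to Sdhc in both settings, 0.744 with marked spots left out and 0.766 with them kept.

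With marked spots left out 34 of 42 members were lower, and the median was -0.119, beside -0.0683 over all genes. When they were kept 33 were lower, and the median was -0.110, beside -0.0671. Scaling to the median of the array in place of the 75th percentile turned the members' median to 0.0959 and that of all genes to 0.145. Both knock-down arrays were below both wild type arrays for 16 members and above them for 0, while the shares over all genes were 30% and 13.9%. Both groups occupied columns 3 and 4, the knock-down arrays in row 2 and the wild type arrays in row 1.

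In complex I, Ndufv2, a core subunit with an iron-sulphur cluster, had the highest difference at 0.14 ± 0.19, with 3.25 and 3.31 in ZEB1 knock-down and 2.95 and 3.34 in wild type. The lowest was Ndufa2, an accessory subunit, at -0.28 ± 0.19 (n = 2 and 1 arrays), with 3.53 and 3.60 against 3.66 and 3.85 in wild type. Ndufv2 overlapped, its 2 wild type arrays lying far apart, and Ndufa2 did not. Several core subunits were near 0 in this comparison: Ndufs7 at 0.02, Ndufv1 at 0.01, Ndufs3 at -0.01 and Ndufs1 at 0.04. In complex II, Sdha was the highest at 0.04 ± 0.15, with 2.88 and 2.72 in ZEB1 knock-down and 2.79 and 2.72 in wild type. Sdhc was the lowest at -0.27 ± 0.15 (95% interval -0.68 to 0.13), with 1.91 and 2.02 against 2.17 and 2.30 in wild type. Both knock-down arrays of Sdhc lay below both wild type arrays, while Sdha overlapped.

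In complex III, Uqcrc1 was the highest at -0.02 ± 0.13, with 3.17 and 3.27 in ZEB1 knock-down and 3.20 and 3.27 in wild type, and Uqcrq the lowest at -0.28 ± 0.17, with 3.48 and 3.72 in ZEB1 knock-down against 3.82 and 3.95 in wild type. Uqcrq was lower on both knock-down arrays. Cyc1, which carries the haem of cytochrome c1, was the least precise member here: with 1 unmarked array per group its interval ran from -1.09 to 1.06. All its spots in the other groups of the slide were marked, so that interval held no replicate spread of Cyc1. Cycs read 3.35 and 3.28 against 3.41 and 3.57 in wild type and was lower on both knock-down arrays, with a difference of -0.18 ± 0.15 on unmarked spots. In complex IV, 0 of 8 subunits were above 0. Cox5a was the highest at -0.11 ± 0.17, with 3.60 and 3.74 in ZEB1 knock-down and 3.66 and 3.90 in wild type. Cox8a was the lowest at -0.29 ± 0.20 (n = 2 and 1 arrays), with 3.59 and 3.51 in ZEB1 knock-down against 3.69 and 3.84 in wild type. Cox6a1, Cox7a2, Cox7c, Cox8a, Cox4i1 and Ndufa4 were each lower on both knock-down arrays, and Cox5a and Cox6c overlapped.

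The 95% intervals excluded a difference of 1 log2 unit in either direction for 41 of 42 members with marked spots left out, Cyc1 being the exception, and for all 42 with marked spots kept. Of 104 related genes on unmarked spots 0 passed limma's test and 0 had an unadjusted p under 0.05. On unmarked spots other complex I subunits ran from -0.26 for Ndufb6 to 0.17 for Ndufab1 (12 genes), and other complex III subunits ran from -0.21 for Uqcr11 to -0.16 for Uqcr10 (3 genes). The other ubiquitous complex IV subunits ran from -0.21 for Cox7a2l to -0.10 for Cox7b (3 genes), and tissue isoforms ran from -0.41 for Cox7a1 to -0.04 for Ndufa4l2 (6 genes). All 16 genes of the ATP synthase list were below 0, from -0.38 for Atp5k to -0.05 for Atp5pb, with a median of -0.130. Of the other lists, tricarboxylic acid cycle enzymes ran from -0.28 for Idh2 to 0.15 for Dld (13 genes), assembly factors ran from -0.26 for Uqcc2 to 0.19 for Ndufaf4 (38 genes), and transcription and biogenesis regulators ran from -0.23 for Nrf1 to 0.35 for Ppargc1b (13 genes). Summed levels were 34.7 and 34.4 in ZEB1 knock-down and 40.5 and 36.4 in wild type for microglial markers, 62.0 and 62.6 against 61.4 and 65.3 for neuronal markers, and 32.6 and 33.1 against 42.2 and 38.0 for oligodendrocyte markers. They were 23.1 and 23.4 in ZEB1 knock-down against 25.4 and 26.5 in wild type for astrocyte markers and 7.81 and 7.89 against 9.43 and 8.81 for monocyte markers. On unmarked spots all 4 erythroid (median -0.34), all 6 oligodendrocyte (median -0.30) and all 6 astrocyte markers (median -0.11) tested were below 0. So were 9 of 10 microglial (median -0.27), 5 of 6 endothelial, 5 of 6 neutrophil and 4 of 6 monocyte markers. Above 0 were 4 of 8 neuronal and 3 of 4 lymphocyte markers. No marker of any list passed the test, and 2 of 6 endothelial and 1 of 6 monocyte markers had an unadjusted p under 0.05 in limma. Their part was not tested.

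Overexpression was then set directly against knock-down before tMCAO, on arrays already used in the previous pair of comparisons. Every complex had a median difference above 0 with marked spots kept, from 0.0818 in complex III to 0.267 in complex IV, and no member passed the test. On unmarked spots 0 of 20 members and 0% of all genes (0 of 25176) passed, with 3719 genes (14.8%) and no member at an unadjusted p under 0.05 in limma. Keeping marked spots, 0 of 42 members and 0% of all genes (0 of 30525) passed, with 3997 genes (13.1%) and 1 member, Ndufa4, at an unadjusted p under 0.05. The smallest adjusted p was 0.388 for Ndufb9 with marked spots left out and 0.364 for Ndufa4 with marked spots kept.

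All 20 members tested on unmarked spots were above 0, with a median of 0.239, beside 0.0978 over all genes. In the wider setting with marked spots kept 39 of 42 were above 0, with a median of 0.205, beside 0.0750, and the 3 below 0 were Ndufs1, Ndufv2 and Uqcrc2. Both overexpression arrays stood above both knock-down arrays for 29 members and below them for 1, Ndufs1. Over all genes the shares were 31.8% and 19.4%. Both groups lay in row 2 of the slide, the overexpression arrays in columns 1 and 2 and the knock-down arrays in columns 3 and 4. Column and genotype therefore cannot be told apart. The share of marked members differed along with them, at 32 and 26 of 42 on the overexpression arrays against 1 and 1 on the knock-down arrays.

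In complex I, Ndufs8, a core subunit with iron-sulphur clusters, was the highest on unmarked spots at 0.39 ± 0.19 (n = 1 and 2 arrays), with 3.80 and 3.90 in ZEB1 overexpression and 3.44 and 3.58 in ZEB1 knock-down. Ndufs3, another core subunit, was the lowest at 0.05 ± 0.19 (n = 1 and 2 arrays), with 3.21 and 3.18 in ZEB1 overexpression against 3.09 and 3.17 in ZEB1 knock-down. Neither overlapped. Ndufb9 read 3.57 and 3.77 in ZEB1 overexpression and 3.40 and 3.38 in ZEB1 knock-down, with a difference of 0.38 ± 0.17 (n = 1 and 2 arrays, 95% interval -0.09 to 0.84). In complex II, Sdhd, the second membrane anchor, was the highest at 0.25 ± 0.18 (n = 1 and 2 arrays), with 2.87 and 3.32 in ZEB1 overexpression and 3.15 and 2.999 in ZEB1 knock-down. Sdhb was the lowest at 0.17 ± 0.20 (n = 1 and 2 arrays), with 3.48 and 3.61 in ZEB1 overexpression against 3.19 and 3.44 in ZEB1 knock-down. Sdhd overlapped and came to 0.02 with marked spots kept, since its overexpression array of 2.87 was marked, and Sdhb did not overlap. Sdhc read 2.32 and 2.29 in ZEB1 overexpression, both marked, and 1.91 and 2.02 in ZEB1 knock-down, a difference of 0.34 ± 0.14 (95% interval -0.002 to 0.69).

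In complex III, Uqcrb was the highest at 0.24 ± 0.20 (n = 1 and 2 arrays), with 3.70 and 3.98 in ZEB1 overexpression and 3.63 and 3.86 in ZEB1 knock-down, and Uqcrc1 the lower of the 2 measured at 0.19 ± 0.13 (n = 2 and 2 arrays), with 3.40 and 3.42 in ZEB1 overexpression against 3.17 and 3.27 in ZEB1 knock-down. Cycs, with marked spots only in ZEB1 overexpression, read 3.46 and 3.57 there against 3.35 and 3.28 in ZEB1 knock-down. Uqcrb overlapped, and Uqcrc1 and Cycs did not. In complex IV all 8 subunits were above 0 with marked spots kept, with a median of 0.267. Cox4i1 was the highest on unmarked spots at 0.45 ± 0.22 (n = 1 and 1 arrays), with 4.48 and 4.79 in ZEB1 overexpression and 4.34 and 4.41 in ZEB1 knock-down. Cox7c was the lowest at 0.16 ± 0.19 (n = 1 and 2 arrays), with 3.48 and 3.73 in ZEB1 overexpression against 3.25 and 3.38 in ZEB1 knock-down. Neither overlapped. Ndufa4 had the largest difference of any member with marked spots kept, 0.42 ± 0.16 (95% interval 0.02 to 0.81), reading 3.87 and 4.18 in ZEB1 overexpression, both marked, and 3.60 and 3.61 in ZEB1 knock-down. Cox6a1, unmarked on all 4 arrays, read 4.33 and 4.35 against 4.07 and 4.07 in ZEB1 knock-down, a difference of 0.27 ± 0.17 (95% interval -0.14 to 0.67).

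The 22 members without a value on unmarked spots were those of the overexpression and wild type comparison before tMCAO, since their overexpression spots were marked. The 95% interval excluded a difference of 1 log2 unit in either direction for 19 of 20 members, all but Cox4i1, with marked spots left out, and for all 42 with marked spots kept. Of 56 related genes on unmarked spots 0 passed limma's test and 3 had an unadjusted p under 0.05. On unmarked spots other complex I subunits ran from -0.14 for Ndufab1 to 0.44 for Ndufb6 (6 genes), and other complex III subunits ran from 0.17 for Uqcr10 to 0.36 for Uqcr11 (2 genes). The ATP synthase subunits ran from 0.20 for Atp5g2 to 0.57 for Atp5e (5 genes), tricarboxylic acid cycle enzymes ran from -0.23 for Sucla2 to 0.58 for Suclg2 (8 genes), and tissue isoforms ran from -0.08 for Ndufa4l2 to 0.59 for Cox6b2 (6 genes). The assembly factors ran from -0.38 for Sdhaf3 to 0.44 for Uqcc2 (21 genes), and transcription and biogenesis regulators ran from -0.30 for Tfb2m to 0.16 for Esrra (8 genes). All 16 genes of the ATP synthase list were above 0 with marked spots kept, with a median of 0.209. Summed levels were 35.1 and 36.5 in ZEB1 overexpression against 34.7 and 34.4 in ZEB1 knock-down for microglial markers, 62.6 and 62.5 against 62.0 and 62.6 for neuronal markers, 24.4 and 27.6 against 23.1 and 23.4 for astrocyte markers, and 34.6 and 40.3 against 32.6 and 33.1 for oligodendrocyte markers. On unmarked spots all 3 erythroid markers tested were below 0 (median -0.83), as were 3 of 4 oligodendrocyte, 4 of 6 monocyte and 3 of 4 lymphocyte markers. Above 0 were 5 of 5 astrocyte, 5 of 6 microglial, 2 of 3 neuronal, 3 of 5 endothelial and 2 of 3 neutrophil markers. No marker of any list passed the test, and 2 of 5 endothelial, 1 of 5 astrocyte and 1 of 3 erythroid markers had an unadjusted p under 0.05 in limma. Their part was not tested.

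**Figure D3:**
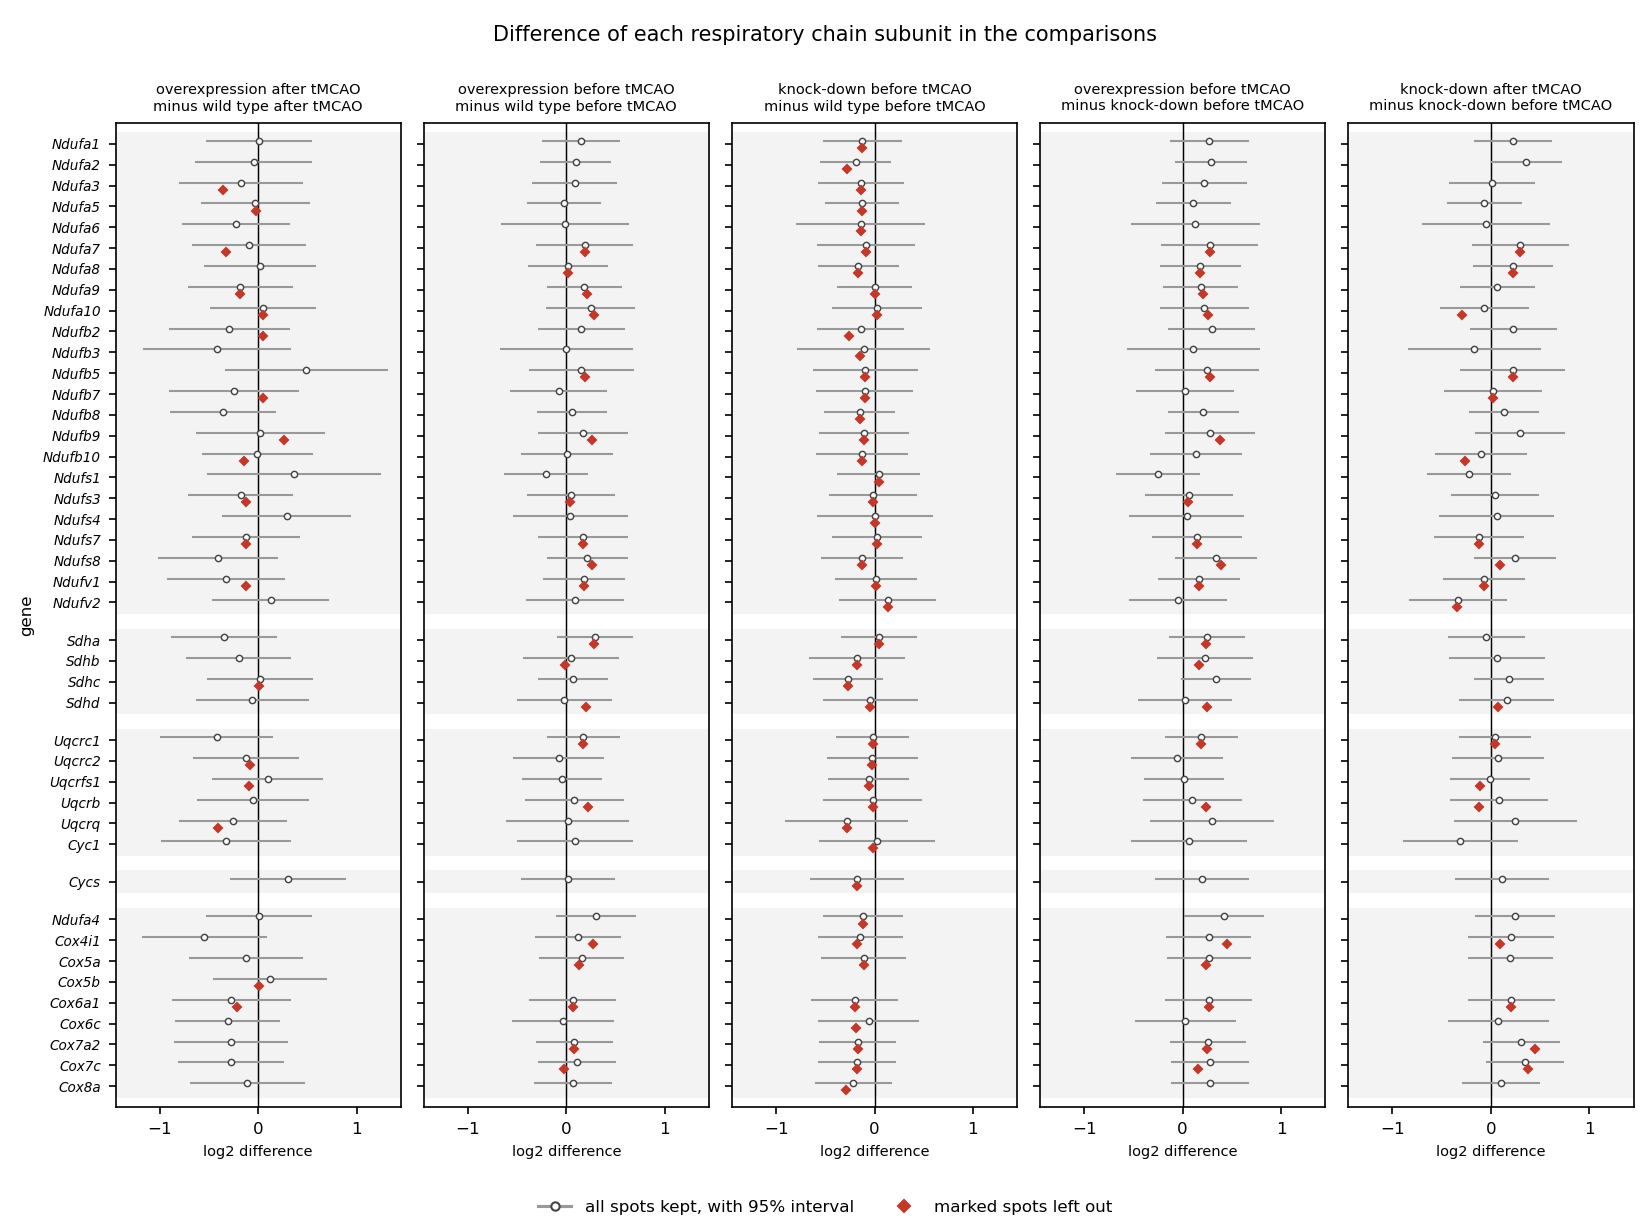
Difference of each member in each of the 5 comparisons (log2, first group minus second), with an open circle and its 95% interval for marked spots kept and a red diamond for marked spots left out. Members without a diamond had no unmarked value in one of the groups; in ZEB1 overexpression minus ZEB1 knock-down before tMCAO 39 of 42 circles lie above 0.

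**Figure D4:**
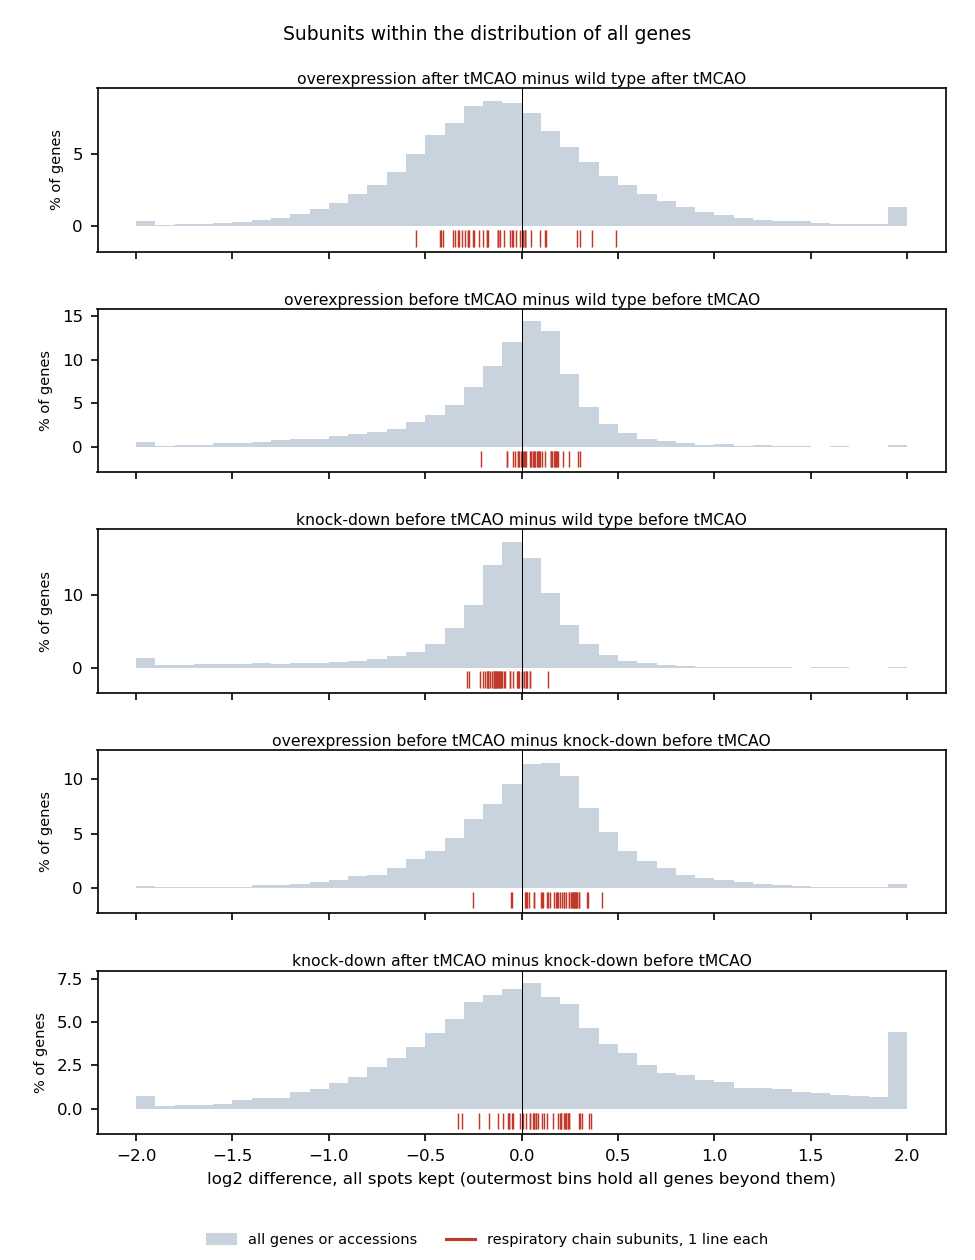
Distribution of the differences of all genes in each comparison (bars, percent of genes per bin of log2 difference, marked spots kept), with the members as red ticks. The ticks lie in the central part of each distribution, with a median of 0.205 against 0.0750 over all genes in ZEB1 overexpression minus ZEB1 knock-down before tMCAO.

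The last comparison asks what changed in ZEB1 knock-down microglia after tMCAO, the one genotype with both times on the same slide. Many genes changed, but no subunit of the chain passed the test, and the differences of the members depended on which of the 2 arrays after tMCAO was read. On unmarked spots 0 of 18 members passed, while 18.1% of all genes did (4460 of 24662). With marked spots kept 0 of 42 members passed, while 16.6% of all genes did (5062 of 30525). In limma 9140 genes (37.1%) with marked spots left out had an unadjusted p under 0.05, none of them a member, and 10762 (35.3%) with marked spots kept, among them 1 member, Ndufa2. The smallest adjusted p was 0.146 for Cox7a2 with marked spots left out and 0.136 for Ndufa2 with marked spots kept.

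On unmarked spots 11 of 18 members were higher after tMCAO, with a median of 0.0561, beside 0.0442 over all genes. With marked spots kept 30 of 42 were higher, with a median of 0.0799, beside 0.0409. Scaling to the median of the array turned the members' median to -0.330 and that of all genes to -0.273. Both arrays after tMCAO stood above both arrays before it for 13 members and below them for 2, Ndufs1 and Ndufv2. Over all genes the shares were 33.6% and 28.4%. For the members, the 2 arrays after tMCAO stood further from each other than the times did: replicate 2 read higher than replicate 1 for 39 of 42 members, by a median of 0.314, against 0.0194 over all genes. Without replicate 1 after tMCAO and with marked spots kept, 39 of 42 members were higher and the median was 0.255. Without replicate 2, 15 of 42 were higher. The arrays after tMCAO lay in row 1 and columns 1 and 2, and those before it in row 2 and columns 3 and 4, so position and time cannot be told apart.

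In complex I, Ndufa7, an accessory subunit, was the highest on unmarked spots at 0.30 ± 0.19 (n = 2 and 2 arrays), with 3.12 and 3.54 after tMCAO and 2.95 and 3.10 before. Ndufv2 was the lowest at -0.34 ± 0.24 (n = 1 and 2 arrays), with 2.96 and 2.94 after tMCAO and 3.25 and 3.31 before. Neither overlapped. Ndufa2 had the largest difference of any member with marked spots kept, 0.36 ± 0.15 (95% interval 0.01 to 0.71, adjusted p = 0.136), with 3.87 and 3.98 after tMCAO, both marked, and 3.53 and 3.60 before. The widest gap between the arrays after tMCAO was that of Ndufb3, an accessory subunit, at 2.32 and 3.18 after tMCAO and 2.91 and 2.93 before. Its values before tMCAO lay within that gap. In complex II the only member with unmarked values at both times was Sdhd, at 0.07 ± 0.18 (n = 1 and 2 arrays), with 3.14 and 3.32 after tMCAO and 3.15 and 2.999 before. Sdhc read 2.10 and 2.21 after tMCAO, both marked, and 1.91 and 2.02 before.

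In complex III, Uqcrc1 was the highest at 0.04 ± 0.13 (n = 2 and 2 arrays), with 3.15 and 3.37 after tMCAO and 3.17 and 3.27 before, and Uqcrb the lowest at -0.12 ± 0.20 (n = 1 and 2 arrays), with 3.62 and 4.03 after tMCAO and 3.63 and 3.86 before. Uqcrb turned to 0.08 with its marked array after tMCAO kept. Both overlapped, as did Cyc1 at 2.85 and 3.51 after tMCAO and 3.46 and 3.51 before, and Cycs at 3.20 and 3.67 after tMCAO against 3.35 and 3.28 before. In complex IV all 8 subunits were above 0 with marked spots kept, with a median of 0.205. Cox7a2, the form of subunit 7a found outside muscle, was the highest on unmarked spots at 0.45 ± 0.17 (n = 1 and 2 arrays, 95% interval -0.02 to 0.93), with 4.01 and 4.29 after tMCAO and 3.87 and 3.81 before. Cox4i1 was the lowest at 0.10 ± 0.22 (n = 1 and 1 arrays), with 4.44 and 4.72 after tMCAO and 4.34 and 4.41 before. Neither overlapped, and Cox7c, at 3.64 and 3.70 after tMCAO and 3.25 and 3.38 before, did not either. Its difference was 0.38 ± 0.19 (n = 1 and 2 arrays).

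The 24 members without a value on unmarked spots after tMCAO were Ndufa1, Ndufa2, Ndufa3, Ndufa5, Ndufa6, Ndufa9, Ndufb2, Ndufb3, Ndufb8, Ndufb9, Ndufs1, Ndufs3 and Ndufs4 of complex I, Sdha, Sdhb and Sdhc of complex II, Uqcrc2, Uqcrq and Cyc1 of complex III, Cycs, and Ndufa4, Cox5a, Cox6c and Cox8a of complex IV. The 95% interval excluded a difference of 1 log2 unit in either direction for all 18 members tested on unmarked spots and for all 42 with marked spots kept.

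Of 53 related genes on unmarked spots 3 had an adjusted p under 0.05, none of them a structural subunit of the chain, and 1 of the 3 rested on 2 arrays at each time. Lyrm7 is a chaperone that helps insert the Rieske protein into complex III. It fell after tMCAO by 1.39 on the log2 scale (SE 0.20, n = 2 and 2 arrays, limma adjusted p = 0.0146). With marked spots kept the adjusted p was 0.00898. Its mean level was dim, at -4.99 after tMCAO and -3.60 before. The medians over all spots of the arrays after tMCAO were -3.51 and -3.75, both above its level there. Ttc19, which takes part in the upkeep of complex III, had a difference of -1.50 with 1 unmarked array after tMCAO (adjusted p = 0.0175), and with marked spots kept its difference of -1.12 did not pass (adjusted p = 0.0763). Ppargc1b, a coactivator of the PGC-1 family, had a difference of -3.44 with 1 unmarked array at each time (adjusted p = 0.0351), and with marked spots kept its difference of -1.89 did not pass either (adjusted p = 0.157). The lone array of Ttc19 has no spread of its own and was assumed to vary like the other groups. For Ppargc1b no group supplied a spread, and its SE of 0.27 was the typical one that limma drew from all genes. With marked spots kept the SE of Ppargc1b was 0.82. These were 2 of 22 assembly factors and 1 of 7 regulators measured on unmarked spots, and with marked spots kept 1 of 38 and 0 of 13.

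On unmarked spots other complex I subunits ran from -0.48 for Ndufv3 to 0.62 for Ndufab1 (5 genes), and other complex III subunits stood at 0.34 for Uqcr11 (1 gene). The ATP synthase subunits ran from -0.07 for Atp5a1 to 0.61 for Atp5l (6 genes), tricarboxylic acid cycle enzymes ran from -0.23 for Mdh2 to 0.32 for Idh2 (6 genes), and tissue isoforms ran from -0.08 for Cox8b to 0.77 for Cox7a1 (6 genes). The highest of the assembly factors was Coa5 at 0.62 and of the regulators Mterf1a at 0.02. With marked spots kept the median was 0.218 for the 16 genes of the ATP synthase list, of which 14 were above 0, and -0.234 for 13 regulators. Markers of several cell types moved in this comparison. Summed levels were 58.6 and 52.7 after tMCAO and 34.7 and 34.4 before for microglial markers, 17.3 and 18.0 against 7.81 and 7.89 for 6 monocyte markers, 48.2 and 54.5 against 62.0 and 62.6 for neuronal markers, 30.1 and 32.5 against 23.1 and 23.4 for astrocyte markers, and 47.4 and 47.0 against 32.6 and 33.1 for oligodendrocyte markers. They were 7.39 and 8.57 against 5.21 and 6.05 for endothelial and 10.5 and 7.91 against 6.02 and 5.49 for 7 neutrophil markers, each pair after tMCAO against before. Those of 6 lymphocyte markers were under 1 on all 4 arrays. On unmarked spots 3 of 5 microglial and 4 of 5 monocyte markers rose, and 2 of 2 neuronal markers fell, at an adjusted p under 0.05. At the same threshold 2 of 5 endothelial, 1 of 5 astrocyte (Gfap) and 1 of 1 oligodendrocyte markers rose, 3 of 4 erythroid markers tested (median -1.99) and 1 of 4 lymphocyte markers (Cd3e) were lower, and 0 of 3 neutrophil markers passed. The monocyte markers that rose were Ccr2, Chil3, Cd163 and Lyve1, and Ly6c2 did not pass. Lyve1 and Ly6c2 each had 1 unmarked array after tMCAO. Of the erythroid markers, Hbb-b1 had 1 unmarked array at each time and Alas2 had 1 after tMCAO. After tMCAO neither array had Cd3e or the erythroid marker Slc4a1 well above background. With marked spots kept 6 of 10 microglial, 6 of 6 monocyte, 4 of 6 endothelial, 2 of 6 oligodendrocyte and 1 of 6 astrocyte markers rose, 3 of 8 neuronal, 1 of 4 erythroid and 1 of 4 lymphocyte markers were lower at the same threshold, and the neuronal marker Stmn2 stood at 0.14 without passing. Their part in the differences of the members was not tested.

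**Figure D5:**
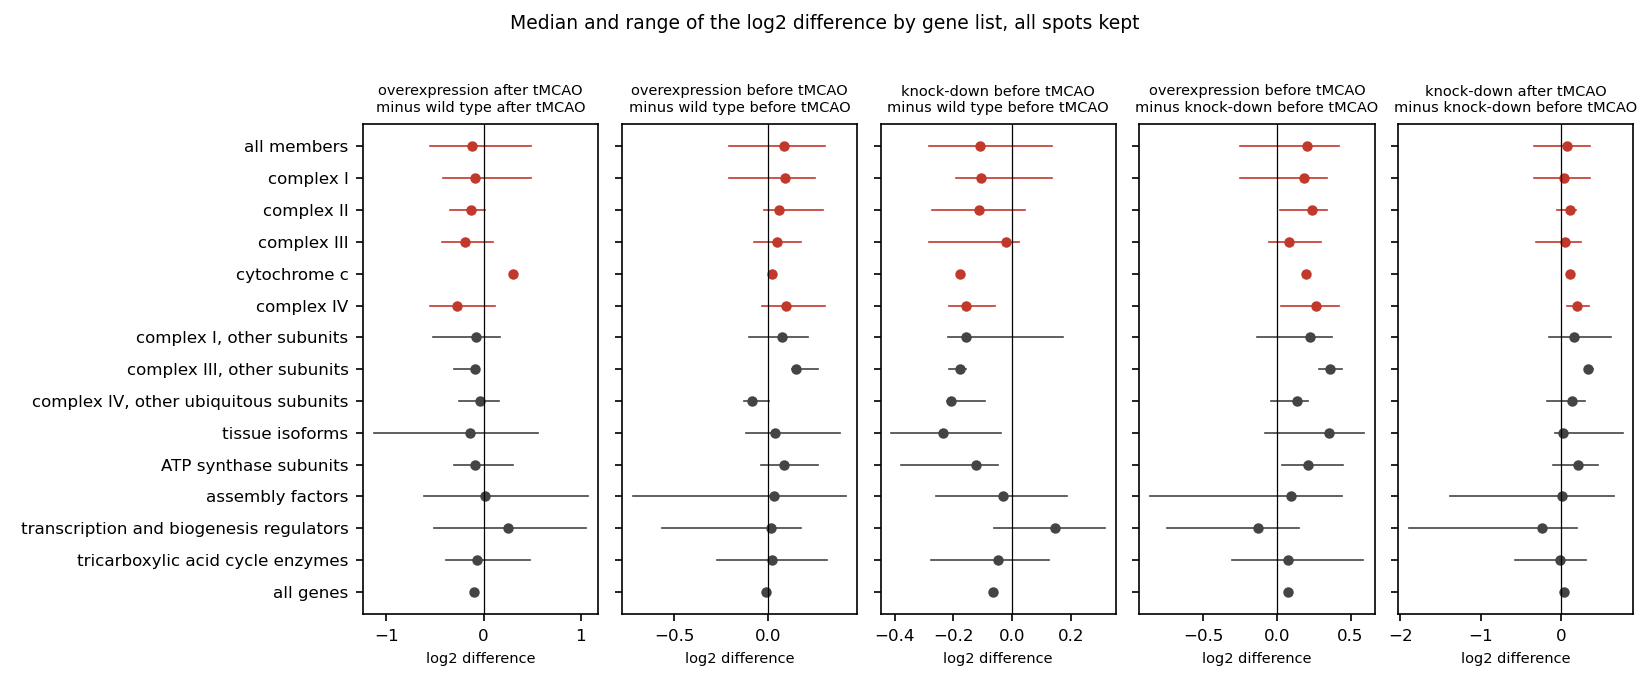
Median (point) and range (line) of the log2 differences of the members by complex and of each related list in each comparison, marked spots kept, with the median of all genes; the horizontal scale differs between panels. The lowest assembly factor in ZEB1 knock-down after minus before tMCAO is Lyrm7 at -1.39.

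A difference of differences tested whether the effect of ZEB1 overexpression differed between after and before tMCAO, over probes that the 2 slides share. Each effect was taken within its own slide. A constant offset between the slides cancels, but a difference in how they respond does not, so time and slide cannot be told apart. The 9 members measured on unmarked spots had a median of -0.295, beside -0.0895 over all genes, and 0 passed in limma, against 1.18% of all genes (185 of 15646). None of the 9 had an unadjusted p under 0.05. Across 34 members with marked spots kept, there was a median of -0.158, beside -0.0782 over all genes, and 0 passed, against 0.478% of all genes (106 of 22185). The smallest adjusted p on unmarked spots was 0.375, for Ndufa9, an accessory subunit of complex I. Sdha was the 1 member at an unadjusted p under 0.05 with marked spots kept, with a difference of differences of -0.64 ± 0.23 (SE; adjusted p = 0.199). In that setting Sdha differed by -0.35 after and by 0.29 before tMCAO.

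For members with several probes the brightest one was used, and the dimmer ones did not always go the same way. After tMCAO, ZEB1 overexpression against wild type, 6 of 12 further probes had the opposite sign, for Ndufb5, Sdhb, Uqcrb, Cycs, Cox7c and Cox8a, with marked spots kept. The widest case was Cox7c, with -0.28 for the chosen and 1.68 for the further probe, and next Ndufb5, with 0.49 for the chosen and -0.29 for the further probe. Before tMCAO the sign was opposite for 6 of 11 further probes in overexpression against wild type (Ndufa5, Ndufb5, Sdhb, Uqcrb, Cycs and Cox7c). It was opposite for 2 of 11 in knock-down against wild type (Sdha and Uqcrb) and for 4 of 11 in overexpression against knock-down (Sdhb, Uqcrb, Cycs and Cox7c). In ZEB1 knock-down after against before tMCAO it was opposite for 7 of 11 (Ndufa5, Ndufb5, Sdha, Sdhb, Uqcrb, Cycs and Cox7c), again widest for Cox7c, with 0.35 for the chosen and -0.31 for the further probe. The differences of these genes thus depend on the probe.

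Replicates shifted together for the members in some groups. In ZEB1 knock-down after tMCAO replicate 2 was the higher array for 39 of 42 members, as given above, and in wild type before tMCAO for 37 of 42, by a median of 0.131 against -0.0366 over all genes. Elsewhere the shift was smaller: 30 of 42 were higher in replicate 2 of ZEB1 overexpression and 30 of 42 in replicate 2 of ZEB1 knock-down before tMCAO, by medians of 0.107 and 0.0647. After tMCAO 31 of 43 were lower in replicate 2 of ZEB1 overexpression and 28 of 43 in replicate 2 of wild type, by medians of -0.122 and -0.0589. The shift of 0.314 in ZEB1 knock-down after tMCAO is larger than the median difference of the members with marked spots kept in each of the 5 comparisons, the largest of which was 0.205.

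Members with the E-box letters CACCTG in the window, whose sequences are shown above for Uqcrc1 and Sdhb, were set beside the other matched members, with marked spots kept and as a description without a test. In ZEB1 overexpression against wild type before tMCAO, 6 of 6 carriers were above 0 with a median of 0.117, and 20 of 26 others with a median of 0.0743. In ZEB1 knock-down against wild type 1 of 6 carriers and 6 of 26 others were above 0, with medians of -0.0703 and -0.113. After tMCAO, in ZEB1 overexpression against wild type, 1 of 6 carriers and 9 of 27 others were above 0, with medians of -0.180 and -0.112. In ZEB1 overexpression against knock-down the medians were 0.206 and 0.205, and in ZEB1 knock-down after against before tMCAO 0.0553 and 0.110. The ranges of carriers and others overlapped in every comparison. For the 5 carriers of the NRF1 core the medians were -0.0611 beside -0.149 for the other 28 after tMCAO and 0.0174 beside 0.0874 for the other 27 before tMCAO, both for ZEB1 overexpression against wild type. In knock-down against wild type they were -0.130 and -0.110, in overexpression against knock-down 0.181 and 0.211, and in knock-down after against before tMCAO 0.161 and 0.0660.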

How the data were processed

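Gene expression was measured on 12 single-colour arrays in 6 groups of 2, grouped from the labels. Per the file headers, Agilent Feature Extraction 11.5.1.1 wrote the scanner files, while the submitters' processing notes name version 9.1. The deposited intensity values are linear signals after background subtraction by that software, per the file headers. Each file also carries yes or no marks per spot (a unit of the kind "other"), per the file headers. The value tables the authors deposited hold log2 signals, with column medians from -3.75 to -3.04. In them each column for ZEB1 knock-down after tMCAO matched the other replicate's scanner file, so they served only as an alternative.

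From the scanner files, log2 of the processed signal minus the 75th percentile of the array was computed, over 55681 probes on the 4-array slide and 56605 on the 8-array slide. Of these, 48.1% and 59.7% had a gene name through RefSeq, and the others were kept under their accession. Control spots were dropped, as were spots with a mark for non-uniformity or for being an outlier. Repeated spots were averaged, and a probe entered if some group had it well above background on all its arrays. The brightest probe stood for a gene or accession. Each slide was fitted with limma 3.58.1 in R 4.3.3 over all its groups, with Benjamini-Hochberg adjustment over all genes and a threshold of 0.05. The procedure was tested on simulated data with a shift far larger than the difference of any member. That simulation does not show how well differences as small as those of the members are found.

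Because the files hold no mean signal, the normexp alternative used median signals with an offset of 50. Slide and scan do not differ within any comparison. Deviations of same-numbered arrays in compared groups correlated at 0.0353 to 0.173, so the numbers were not taken as pairs.

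The members and all lists were chosen with earlier results of these data known. In each comparison the text names every member past the threshold, the highest and lowest of each complex, those with an opposing further probe and those without an unmarked value. Of related lists it names every gene past the threshold and otherwise the highest and lowest. Alternatives covered the marked spots, the scaling, the background, the dim-probe filter, the probe rule, the value tables, the groups fitted, a replicate block and leaving out each array.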

Additional observations from a re-analysis of the deposited data

How the results depend on the processing

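No member was called in any comparison under most alternatives. The exceptions were 1 call each with the mean over all probes in ZEB1 overexpression against wild type and against knock-down before tMCAO and in ZEB1 knock-down after against before tMCAO, all for Ndufb8 (limma adjusted p = 0.00525, 0.00692 and 0.00644), and 1 call with normexp in the last, Cox7a2 (0.66, adjusted p = 0.0391). The Ndufb8 calls follow from that setting's construction: the brighter probe is marked on every array of one group, so its mean there is the dimmer probe alone. The same setting called 518, 549 and 0 genes in the first pair of these comparisons and after tMCAO, against 0, 0 and 515. With the replicate number as a block, members called stayed at 0 in every comparison, and 443 genes were called after tMCAO (515 without), 4685 (4460 without) in ZEB1 knock-down after against before and 68 (185 without) in the difference of differences.

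Median differences moved as follows; the cause was not tested. ZEB1 overexpression against wild type after tMCAO gave 0.0355 with quantile normalization and 0.0282 with marked spots kept as well; leaving out 1 array gave -0.145 to -0.0356 (-0.0356 without overexpression replicate 2, -0.0677 without wild type replicate 2). With marked spots kept the range was -0.187 to -0.0525 (-0.187 without wild type replicate 2, -0.0578 without overexpression replicate 2, -0.0525 without wild type replicate 1). Before tMCAO it gave 0.0810 with marked spots kept (0.0810 with replicate block), 0.322 with normexp, 0.0390 with marked spots kept and quantile normalization, and with marked spots kept 0.0246 without wild type replicate 1 and 0.0369 without overexpression replicate 2; leaving out 1 array gave 0.0761 (overexpression replicate 2) to 0.246, and 0.119 without wild type replicate 1. ZEB1 knock-down against wild type gave -0.0235 with quantile normalization (-0.0141 with marked spots kept), 0.0959 with the array median and -0.0250 without wild type replicate 2 and marked spots kept; leaving out 1 array gave -0.191 (wild type replicate 1) to -0.0229 (wild type replicate 2), and -0.0591 without knock-down replicate 1. ZEB1 overexpression against knock-down gave 0.107 with quantile normalization (0.0866 with marked spots kept), 0.0489 with the array median, 0.330 with normexp and 0.156 without overexpression replicate 2 and marked spots kept. ZEB1 knock-down after against before tMCAO gave -0.330 with the array median and 0.255 without replicate 1 after tMCAO and marked spots kept; leaving out 1 array gave -0.0680 (replicate 2 after) to 0.362 (replicate 1 after), and -0.0178 without replicate 1 before.

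The array median moved the median of all genes to 0.145 in ZEB1 knock-down against wild type and to -0.273 in ZEB1 knock-down after against before tMCAO, and normexp moved it to -0.276 in ZEB1 overexpression after tMCAO. Relative to all genes, the members' median stayed below 0 in all 12 settings with every array for ZEB1 knock-down against wild type (-0.0861 to -0.0276) and above 0 in all 12 for ZEB1 overexpression against wild type before tMCAO (0.0106 to 0.227). It was above 0 in 11 of 12 for overexpression against knock-down, the exception being no filter on dim probes (-0.0384), and took both signs elsewhere. The 12 settings are not 12 separate checks. Fitting only the 2 groups compared cannot change a gene's difference, and neither can a replicate block with marked spots kept. All settings also share the same arrays.

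Counts over all genes differed by over 1.5 times from 515 after tMCAO with marked spots kept (893), quantile normalization (327), the array median (314) and no filter (0), and from 4460 in ZEB1 knock-down after against before tMCAO with no filter (2117), normexp (7394), only the 2 groups compared (2310) and 1 array left out (823 to 3789). A lone remaining array was assumed to vary like the other groups, or, where no group kept 2 values of a gene, like the typical gene. Fitting only the 2 groups compared was the same fit on the 4-array slide. Of 471 values of named members under the alternatives, 50 changed sign, none of them passing the test.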
